A study of Mus musculus with 24 samples.

Results

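CXC chemokines are small secreted proteins that draw leukocytes into tissue. The genes described here are the 8 listed as CXC chemokines of the lung: Cxcl1, Cxcl2, Cxcl5, Cxcl9, Cxcl10, Cxcl12, Cxcl13 and Cxcl15. Members were found by symbol, older synonym and gene identifier in the annotation of the array. In all, 10 of the 12422 probe sets left after removing controls carried 1 of these names, and they covered 7 of the 8 genes. Cxcl1 had 2 probe sets, Cxcl12 had 3, and Cxcl2, Cxcl5, Cxcl9, Cxcl10 and Cxcl13 had 1 each. No probe set in the annotation used here carried Cxcl15, a chemokine known from lung epithelium, so it has no value below. Of the 10 probe sets 9 passed the intensity filter for testing, which required more than 225.7 on at least 2 arrays. The Cxcl9 probe set passed that level on 1 array and was left out of the tests across probe sets.

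The series concerns inherited susceptibility to lung fibrosis, per its title, and holds 24 Affymetrix arrays of total RNA from mouse lung. Lungs came from C57BL/6J or BALB/c mice, both inbred strains with no engineered allele named in the labels, after bleomycin into the trachea at 1.5 U per kg or after saline, and were taken at 24 h, 72 h or 14 d. Each of the 12 groups had 2 arrays, called a and b after their titles. The labels give no age or sex, and are silent on whether a and b came from different animals or from pools, so p-values measure only the spread between these arrays, which may be technical. Bleomycin breaks DNA strands, injures the lung lining and is used to bring on lung fibrosis in mice. Changes are on the log2(intensity + 92) scale, which understates the change of dim genes, with standard errors (SE) from limma. A probe set was called at a Benjamini-Hochberg adjusted p under 0.05 over all 8710 probe sets tested. Values were measured in whole lung, where more cells of a type and more RNA per cell cannot be told apart.

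Several arrays stood apart or went against their labels. H2-Ea, an MHC class II gene that C57BL/6J mice do not express, ran from 25.6 to 166 across the remaining C57BL/6J arrays and from 2917 to 6068 across those of BALB/c, but was 4821 and 3622 on the saline 72 h arrays labelled C57BL/6J and 89.5 and 48.3 on those labelled BALB/c. The strain of these 4 arrays is therefore in doubt, and member comparisons within a strain at 72 h are also given without them and with their labels exchanged. Where they are left out, the control at 72 h is made up of that strain's saline arrays from the 2 other times. The means over both strains do not change if those labels are exchanged. The titles of the BALB/c saline arrays were followed, although their descriptions name bleomycin at 72 h and name both treatments at 24 h. Sftpc, a surfactant gene of alveolar type 2 cells, read 78641 and 43230 on the C57BL/6J saline 24 h arrays and 5.78 to 14576 on the others, so this lung marker was nearly absent on 1 array. Titles of the C57BL/6J saline 24 h arrays end in s1 and those of all others in s2 or s2a. Whatever that ending stands for cannot be told apart from this group. Array medians ran from 314 to 409, and the a and b partners correlated with r between 0.926 and 0.979 across probe sets on the log2 scale, which are not independent replicates. The club cell gene Scgb1a1 ran from 129 to 54857, and the summed intensity of 6 type 2 cell markers from 12264 to 142571. The lowest of these sums and the lowest r between partners, 0.926, were both of BALB/c bleomycin 14 d.

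By structure and receptor the members fall into 3 groups. Cxcl1, Cxcl2 and Cxcl5 carry the Glu-Leu-Arg motif before the first cysteines, bind Cxcr2 and attract neutrophils, and macrophages, epithelium and other stromal cells make them after IL-1, TNF or microbial signals through NF-kappaB. Cxcl9 and Cxcl10 lack that motif, are induced by interferons and attract T cells and natural killer cells through Cxcr3. Cxcl12 and Cxcl13 are made constitutively by stromal cells: Cxcl12 acts on Cxcr4 and is scavenged by Ackr3, and Cxcl13 draws B cells through Cxcr5. In the RefSeq gene table of assembly GRCm38.p6, Cxcl1 lies between Cxcl15 and Cxcl2 on chromosome 5, and Cxcl9 and Cxcl10 are separated by a single protein-coding gene, Art3. Cxcl12 is the only member on another chromosome, 6.

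The 250 bases before the annotated start are shown for Cxcl1, Cxcl2 and Cxcl10, because these are the members whose upstream windows held a match to the motifs searched. They were read from RefSeq, build GRCm38.p6, which had an entry for 7 of the 8 genes and none for Cxcl5. Capitals mark matches on either strand to the NF-kappaB consensus, by its usual name, and to the core of the interferon-stimulated response element, GAAANNGAAA.
Cxcl1, chr5:90890995-90891244, plus strand: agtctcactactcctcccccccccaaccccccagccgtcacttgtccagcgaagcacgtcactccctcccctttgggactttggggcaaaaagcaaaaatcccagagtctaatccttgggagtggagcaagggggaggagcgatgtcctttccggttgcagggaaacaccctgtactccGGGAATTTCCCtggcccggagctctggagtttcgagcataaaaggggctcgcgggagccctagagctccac
Cxcl2, chr5:90903649-90903898, plus strand: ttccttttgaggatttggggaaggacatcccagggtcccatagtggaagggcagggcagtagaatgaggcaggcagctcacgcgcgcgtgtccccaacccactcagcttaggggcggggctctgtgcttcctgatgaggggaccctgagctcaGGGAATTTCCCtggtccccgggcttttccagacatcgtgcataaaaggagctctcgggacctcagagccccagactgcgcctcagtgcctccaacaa
Cxcl10, chr5:92348890-92349139, minus strand, written along the gene: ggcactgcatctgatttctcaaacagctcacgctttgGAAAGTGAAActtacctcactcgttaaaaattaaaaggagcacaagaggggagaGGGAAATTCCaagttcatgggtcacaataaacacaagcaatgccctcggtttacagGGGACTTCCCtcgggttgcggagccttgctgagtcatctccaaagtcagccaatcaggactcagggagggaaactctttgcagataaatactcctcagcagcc
Cxcl1 and Cxcl2 both hold the NF-kappaB match GGGAATTTCC, at 71 to 62 bases before the start of Cxcl1 and 97 to 88 before that of Cxcl2. In both, a match on the other strand, written GGAATTTCCC along the gene, overlaps it and is shifted by 1 base. Cxcl10 holds 2 NF-kappaB matches, GGGAAATTCC at 159 to 150 and GGGACTTCCC at 103 to 94 bases before its start, and the response element match GAAAGTGAAA at 213 to 204. The same windows of Cxcl9, Cxcl12, Cxcl13 and Cxcl15 held no match to either motif. No member's window held the gamma-activated site TTCNNNGAA. Over all 32851 promoter windows of that length in the table, 3.9% held the NF-kappaB consensus, 2.98% the response element core and 7.02% the gamma-activated site. These matches are a description of letters, not evidence of binding.

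Among the neutrophil-attracting members, Cxcl1 was brighter at 24 h than at 72 h or 14 d on the bleomycin arrays of both strains. In C57BL/6J its probe set 95348_at read 3944 and 2445 at 24 h, 892 and 755 at 72 h, and 528 and 269 at 14 d after bleomycin. In BALB/c it read 1059 and 1197 at 24 h, 551 and 679 at 72 h, and 571 and 652 at 14 d. Both C57BL/6J arrays were above both BALB/c arrays at 24 h, while at 14 d both BALB/c arrays were above both C57BL/6J arrays. After saline, 10 of the 12 arrays lay between 95.2 and 273, but the b arrays of 24 h read 1483 in C57BL/6J and 3720 in BALB/c, against 162 and 181 on the a arrays of those groups. The groups at 24 h therefore overlapped in BALB/c, where a saline array was the highest of the strain, and not in C57BL/6J. The second Cxcl1 probe set, 95349_g_at, ran from 125 to 2734 after bleomycin and from 60.2 to 182 on the same 10 saline arrays, with 874 and 2281 on the 24 h b arrays. The 2 probe sets followed each other with r = 0.985 over the 24 arrays, given as a description since both read 1 gene.

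Cxcl2, which shares its receptor with Cxcl1, was brightest on 2 saline arrays and not after bleomycin. It read 3839 on the C57BL/6J and 1478 on the BALB/c saline 24 h b array, against 97.8 and 105 on their a partners. After bleomycin it read 526 and 314 at 24 h, 152 and 119 at 72 h and 194 and 96.4 at 14 d in C57BL/6J. In BALB/c it read 199 and 229 at 24 h, 111 and 132 at 72 h, and 88.7 and 63.5 at 14 d. No bleomycin array came near those b arrays, and the other 10 saline arrays lay between 14.3 and 154. In BALB/c at 14 d both bleomycin arrays were below both saline arrays, which read 106 and 154.

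Cxcl5, an epithelial neutrophil attractant of the lung, read 858 and 569.9 at 24 h after bleomycin in C57BL/6J, then 159.7 and 144 at 72 h and 127 and 157 at 14 d. In BALB/c it read 215 and 256 at 24 h, but 93.0 and 489 at 72 h and 186 and 793 at 14 d, so the 2 arrays of a group parted by more than 4-fold at both later times. Saline 24 h b arrays read 647 in C57BL/6J and 817 in BALB/c, and the other 10 saline arrays 21.6 to 182. In C57BL/6J the level after bleomycin was thus highest at 24 h. Its arrays overlapped those of saline at 24 h, through the b array, and at 14 d, where saline read 121 and 182. In BALB/c the saline 24 h b array was above both bleomycin arrays of 24 h.

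**Figure D1:**
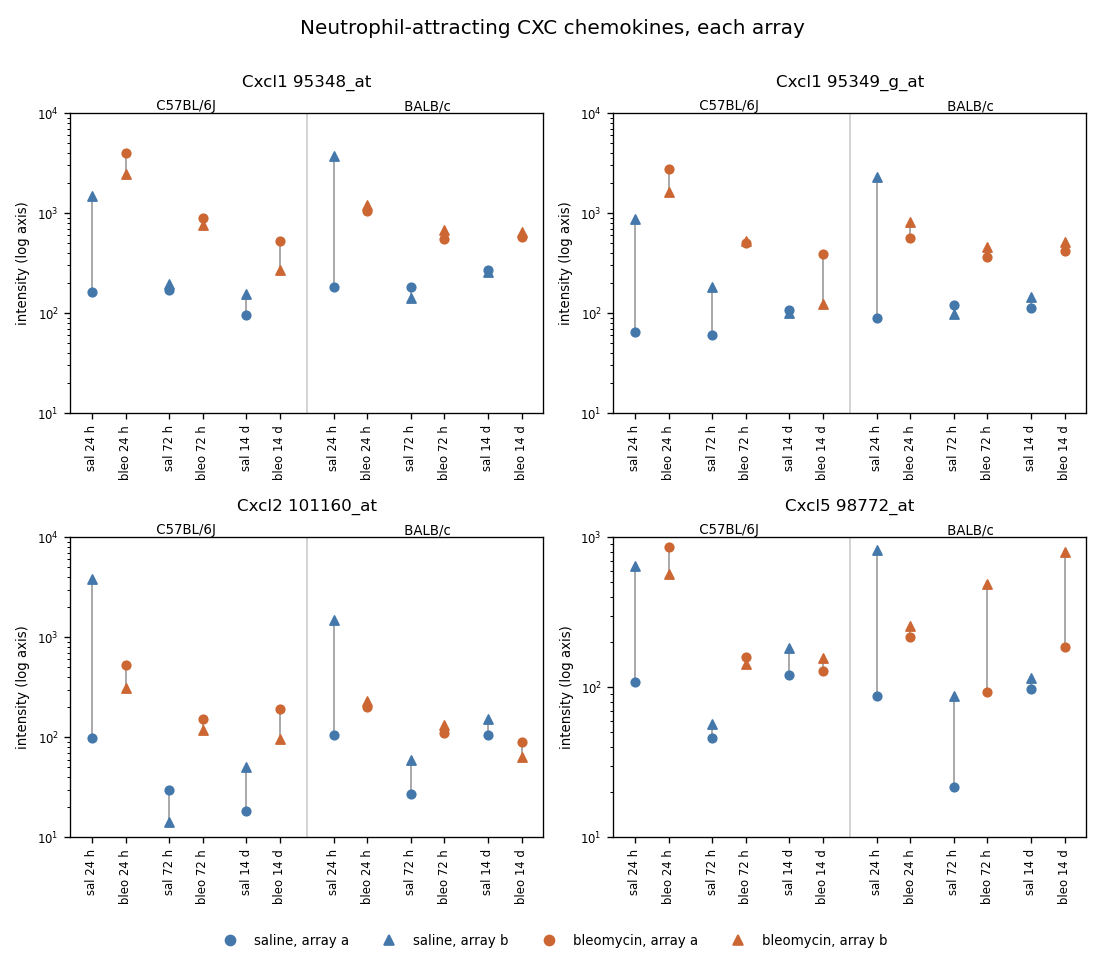
Intensity (log axis) of the 2 Cxcl1 probe sets, Cxcl2 and Cxcl5 on each of the 24 arrays, by strain, treatment and time; circles are a arrays, triangles b arrays, and a line joins the 2 arrays of a group. The saline 24 h b arrays stand far above their a partners in both strains: 1483 and 3720 against 162 and 181 for Cxcl1 95348_at.

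With all arrays as labelled, no member was called 24 h after bleomycin: 0 of 9 tested in C57BL/6J, where 2.23% of all probe sets were called, 0 of 9 in BALB/c, where 0.218% were, and 0 of 9 for the mean of both strains, with 3.04% called overall. At an unadjusted limma p under 0.05 the counts were 3, 0 and 3 of 9, beside 1275, 1182 and 1639 of all 8710 probe sets. Cxcl1 95348_at differed by 2.34 ± 0.82 (SE, n = 2 against 2) in C57BL/6J, limma adjusted p 0.162, with a 95% interval from 0.61 to 4.07, and by 0.26 ± 0.82 in BALB/c, adjusted p 0.921. The strain difference in this change was 2.08 ± 1.16, limma adjusted p 0.599. Cxcl2 differed by -0.79 ± 0.93 in C57BL/6J, limma adjusted p 0.792. The model estimates 1 spread per probe set, so the saline 24 h b arrays entered every comparison: without them the SE of Cxcl1 95348_at for the mean of both strains at 72 h was 0.18 in place of 0.58.

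The genes that set those b arrays apart were examined next. Over the 8710 probe sets tested, b minus a in the saline 24 h groups, as the mean over both strains, put Cxcl2 in 4th place (3.68), the 2 Cxcl1 probe sets in 7th and 8th (3.22 and 3.16), Cxcl5 in 16th (2.11) and Cxcl13 in 48th (1.31). Near them stood Saa3 (4.73), Acod1 (3.76), Orm1 (3.66), Lcn2 (3.43), Ccl3 (3.09), Il1rn (2.81), Il1b (2.52) and Ccl2 (2.48), which code acute-phase proteins and products of activated myeloid cells. In both strains 12 probe sets were more than 2 higher on b, and 0 more than 2 lower. Il1b, a cytokine that induces Cxcl1 and Cxcl2, read 2810 and 2174 on these b arrays and 262 and 477 on their a partners. The summed intensity of 13 neutrophil markers was 12931 and 24757 on the b arrays against 8331 and 7524 on the a arrays, with 5636 to 9047 on the other saline arrays and 8006 to 13934 after bleomycin. Within that list Prtn3 was above the filter level on no array. The part of neutrophil RNA or of Il1b in the chemokine values of these arrays was not tested.

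Because the b arrays were picked by the values of these very genes, p-values without them are not independent and are given only as a measure of dependence. Without both, Cxcl1 95348_at differed by 3.65 in C57BL/6J (limma adjusted p 1.8e-05) and by 2.16 in BALB/c (limma adjusted p 0.00417) at 24 h. Cxcl2 turned to 1.40 in C57BL/6J (limma adjusted p 0.0337) and from -0.82 to 1.02 for the mean of both strains (limma adjusted p 0.0256). Cxcl5 moved from 0.37 to 1.42 for the mean of both strains (limma adjusted p 0.0795) and was not called. Saline 14 d arrays then stood in as control at every time, a choice also made after the values were seen. Cxcl1 95348_at differed by 3.89 in C57BL/6J and 1.77 in BALB/c. The strain difference was then 2.12 ± 0.37 (limma adjusted p 0.024), and it was not called without the b arrays. That SE is far below the one as labelled, so the saline 24 h b arrays did not enter the spread of this fit either. The stand-in control is thus no check apart from leaving those arrays out. The direction of Cxcl2 thus rested on which saline arrays served as the control. The call of Cxcl1 95348_at in C57BL/6J at 24 h also turned on the shared spread: it was made at an unchanged 2.34 when the BALB/c saline 24 h array a (limma adjusted p 0.0256) or b (limma adjusted p 0.026) was left out, and neither is a control in that comparison. Leaving out only the C57BL/6J saline 24 h b array gave 3.65 (limma adjusted p 0.0365).

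**Figure D2:**
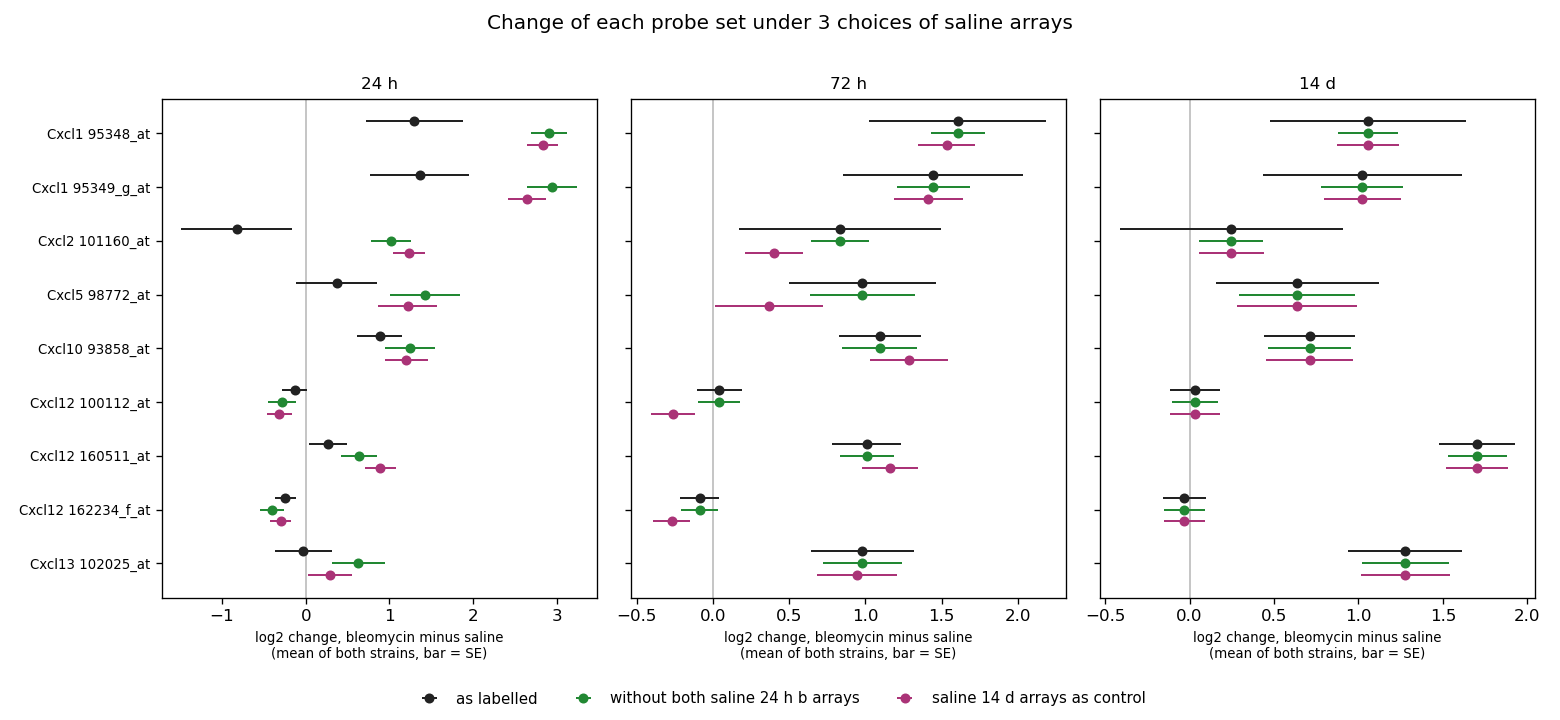
Change after bleomycin against saline as the mean of both strains (log2 scale, bars are SE) for the 9 tested probe sets at each time, with all arrays as labelled, without both saline 24 h b arrays, and with the saline 14 d arrays as control. The saline 24 h b arrays do not enter the spread under either of the last settings. At 24 h Cxcl2 moves from -0.82 to 1.02 and 1.23, while Cxcl12 160511_at at 14 d is 1.70 under all 3.

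At 72 h and 14 d every bleomycin array was above the saline arrays of its strain and time for Cxcl1, but the change did not pass the test as labelled. The mean change of both strains was 1.60 ± 0.58 at 72 h (limma adjusted p 0.151) and 1.06 ± 0.58 at 14 d (limma adjusted p 0.248) for 95348_at. The saline 24 h b arrays enter these contrasts only through the spread, so the changes are the same without them. As those arrays were picked by the values of these genes, the smaller spread without them is no independent support for a call. Cxcl2 differed by 0.83 ± 0.66 at 72 h and 0.25 ± 0.66 at 14 d, and Cxcl5 by 0.98 ± 0.48 and 0.64 ± 0.48, none called. Within a strain at 72 h, Cxcl1 95348_at differed by 1.74 in C57BL/6J and 1.47 in BALB/c as labelled, 1.30 and 0.22 without the doubtful saline arrays, and 1.85 and 1.36 with their labels exchanged, none called. The stand-in control without those arrays holds the saline 24 h b arrays. Cxcl2 in C57BL/6J at 14 d differed by 0.89 and in BALB/c by -0.40, limma adjusted p for the difference 0.589.

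The interferon-induced Cxcl10 was higher in C57BL/6J 72 h after bleomycin. It read 434 and 228 there, against 44.8 and 31.2 after saline, a change of 1.66 ± 0.38 (SE, n = 2 against 2; limma adjusted p 0.0132). At 24 h it read 540.0 and 207 in C57BL/6J after bleomycin against 32.5 and 159 after saline, and at 14 d 78.2 and 63.4 against 17.2 and 11.9. Bleomycin arrays were above saline arrays at each time in this strain, and the level at 14 d was the lowest of the 3. In BALB/c it read 82.0 and 60.5 at 24 h, 54.7 and 165 at 72 h, and 131 and 128 at 14 d after bleomycin. The BALB/c saline arrays read 8.92 and 44.5, 56.2 and 30.9, and 49.1 and 20.7 at those times, so as labelled the groups overlapped at 72 h only. With the strain labels of the saline 72 h arrays exchanged, the BALB/c saline values are 44.8 and 31.2 and the groups overlapped at no time. All Cxcl10 values are low: 3 of 24 arrays exceeded the filter level, all of them C57BL/6J after bleomycin. Of these 3, 2 are the bleomycin 72 h arrays, so Cxcl10 entered the tests through the group in which it was high, and its call is not support independent of the filter. Fitted with no filter, the change was 1.66 (limma adjusted p 0.0133).

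The change of Cxcl10 at 72 h was 1.09 ± 0.27 for the mean of both strains (limma adjusted p 0.0332), and 0.89 ± 0.27 at 24 h (limma adjusted p 0.0797). In C57BL/6J at 72 h it was 1.58 without the 4 saline arrays of doubtful strain (limma adjusted p 0.015) and 1.60 with their labels exchanged (limma adjusted p 0.0303). Its BALB/c change was 0.53 as labelled, 0.68 without them and 0.58 with labels exchanged, none called. Leaving out 1 array ended the call in C57BL/6J for bleomycin a (1.30, limma adjusted p 0.175), saline a (1.74, limma adjusted p 0.054) and saline b (1.58, limma adjusted p 0.105) of 72 h. For the mean of both strains, leaving out either saline 72 h array of either strain, C57BL/6J bleomycin a or BALB/c bleomycin b ended it, with limma adjusted p from 0.0604 to 0.177. After bleomycin C57BL/6J exceeded BALB/c by 0.68 ± 0.22 as the mean of 3 times, limma adjusted p 0.0529, just outside the threshold. At 14 d the order was the reverse, with 78.2 and 63.4 in C57BL/6J and 131 and 128 in BALB/c. The 3 arrays above the filter level were all C57BL/6J after bleomycin, so this difference is not independent of the filter either.

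Cxcl9, which shares the receptor Cxcr3 with Cxcl10, was dim throughout. After bleomycin its 12 arrays read from 15.9 to 304 with a median of 103, and after saline from 14.5 to 69.0 with a median of 20.7. In C57BL/6J all 6 bleomycin arrays, 98.6 to 213, were above all 6 saline arrays, 20.6 to 34.6. In BALB/c the bleomycin arrays read 81.5 and 63.6 at 24 h, 15.9 and 304 at 72 h, and 68.5 and 63.8 at 14 d, and only at 72 h did they overlap saline, 69.0 and 16.3. Exchanging the strain labels of the saline 72 h arrays, which read 20.6 and 21.9 where labelled C57BL/6J, widens the C57BL/6J saline range to 16.3 to 69.0. The bleomycin arrays of C57BL/6J still lay above it, and the BALB/c groups still overlapped at 72 h only. An exact two-sided permutation test of treatment within strain and time, over 46656 arrangements, was chosen after the values were seen. This permutation test gave a mean difference of 0.84 and p = 3.86e-04, or 1.29e-04 with those labels exchanged, where 4.29e-05 was the smallest possible. Run for this member alone and unadjusted, it is no support independent of those values. Fitted without the intensity filter, limma called Cxcl9 in none of the bleomycin comparisons, with changes from 0.54 to 1.11. Since nearly all values lie below the filter level, sizes here are less certain than for the other members.

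**Figure D3:**
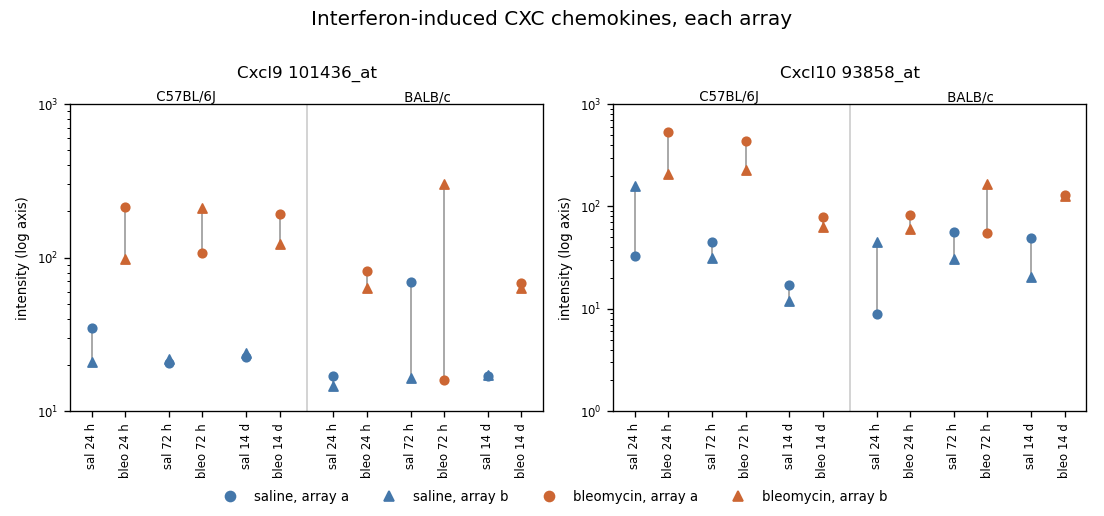
Intensity (log axis) of Cxcl9 and Cxcl10 on each of the 24 arrays, by strain, treatment and time; circles are a arrays, triangles b arrays. In C57BL/6J the Cxcl9 bleomycin arrays, 98.6 to 213, lie above all saline arrays of the strain as labelled, 20.6 to 34.6.

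Cxcl12, the stromal chemokine that holds leukocytes and progenitors through Cxcr4, gave the smallest adjusted p of all members with all arrays as labelled, on 1 of its 3 probe sets. Probe set 160511_at read 1749 and 1481 in C57BL/6J 14 d after bleomycin against 332 and 486 after saline, a change of 1.78 ± 0.32 (SE, n = 2 against 2; limma adjusted p 0.00333). In BALB/c it read 1344 and 2315 at 14 d against 572 and 456, a change of 1.62 ± 0.32 (limma adjusted p 0.00431). It was the single member called at 14 d in each strain, 1 of 9 in C57BL/6J where 7.43% of all probe sets were called, and 1 of 9 in BALB/c where 13.3% were. At 72 h it read 1550 and 1077 in C57BL/6J against 518 and 439, and 909 and 1069 in BALB/c against 583 and 530.1. At 24 h it read 1352 and 909.6 against 562 and 1488 in C57BL/6J, and 783 and 742 against 558 and 649 in BALB/c. All 12 bleomycin arrays, 742 to 2315, were above 11 of the 12 saline arrays, 332 to 649, and the C57BL/6J saline 24 h b array, 1488, was the exception.

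For the mean of both strains the change of 160511_at was 0.27 ± 0.23 at 24 h (limma adjusted p 0.562), 1.01 ± 0.23 at 72 h (limma adjusted p 0.0176) and 1.70 ± 0.23 at 14 d (limma adjusted p 1.94e-04). After bleomycin it was higher at 14 d than at 24 h by 0.81 ± 0.23 (limma adjusted p 0.0206). The call at 14 d for the mean of both strains held when any 1 array was left out, with changes of 1.52 to 1.89. Within C57BL/6J at 14 d it ended without bleomycin a (1.67, limma adjusted p 0.061), and within BALB/c without bleomycin b (1.25, limma adjusted p 0.0833). In C57BL/6J at 72 h the change was 1.28 ± 0.32 as labelled (limma adjusted p 0.0214), 0.97 without the 4 saline arrays of doubtful strain (limma adjusted p 0.065) and 1.10 with their labels exchanged (limma adjusted p 0.08), so that call depended on those labels. In BALB/c at 72 h it was 0.74 as labelled, 0.74 without them and 0.92 with labels exchanged, none called. Leaving out C57BL/6J bleomycin a, saline a or saline b of 72 h ended it too, with changes of 1.04 to 1.38. For the mean of both strains at 72 h the call ended without C57BL/6J bleomycin a or saline b, or BALB/c bleomycin b, saline a or saline b (0.89 to 1.04, limma adjusted p 0.0541 to 0.0997), and the rise from 24 h to 14 d ended without BALB/c bleomycin 14 d b or 24 h b, or C57BL/6J bleomycin 14 d a or 24 h b (0.62 to 0.79).

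The other probe sets annotated to Cxcl12 did not share this change. Probe set 100112_at lay between 1267 and 2663 and 162234_f_at between 444 and 890 on all 24 arrays, with no call in any comparison. These 2 followed each other with r = 0.847 over the 24 arrays, and followed 160511_at with r of 0.05 and -0.23. The 3 were designed from different cDNA entries, and the f in one name marks probes that may also match related sequences; which transcript ends or variants each reads was not analysed here. A rise of Cxcl12 as a gene is therefore shown by 1 probe set and not by the others.

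Cxcl13, the B cell attractant of lymphoid follicles, was higher at 14 d. It read 578 and 258 in C57BL/6J after bleomycin against 96.0 and 70.6 after saline, and 243 and 394 in BALB/c against 89.9 and 106. At 72 h it read 246 and 284 against 54.7 and 126 in C57BL/6J, and 129 and 445 against 92.0 and 78.1 in BALB/c. At 24 h bleomycin arrays read 121 to 152 in both strains, between saline a arrays of 23.4 and 88.5 and saline b arrays of 284 and 250.4. At the 2 later times the groups did not overlap in either strain, also with the saline 72 h labels exchanged, and at 24 h they overlapped in both. The change for the mean of both strains was 1.28 ± 0.34 at 14 d (limma adjusted p 0.0204) and 0.98 ± 0.34 at 72 h (limma adjusted p 0.131). Within a strain it was not called at 14 d: 1.47 in C57BL/6J (limma adjusted p 0.0696). At 72 h it was 0.99 in C57BL/6J and 0.96 in BALB/c as labelled, 0.90 and 0.67 without the doubtful saline arrays, and 1.01 and 0.95 with their labels exchanged, none called. The 14 d call ended, with changes of 1.04 to 1.31, when C57BL/6J bleomycin a or saline b, or BALB/c bleomycin b, saline a or saline b of 14 d was left out.

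**Figure D4:**
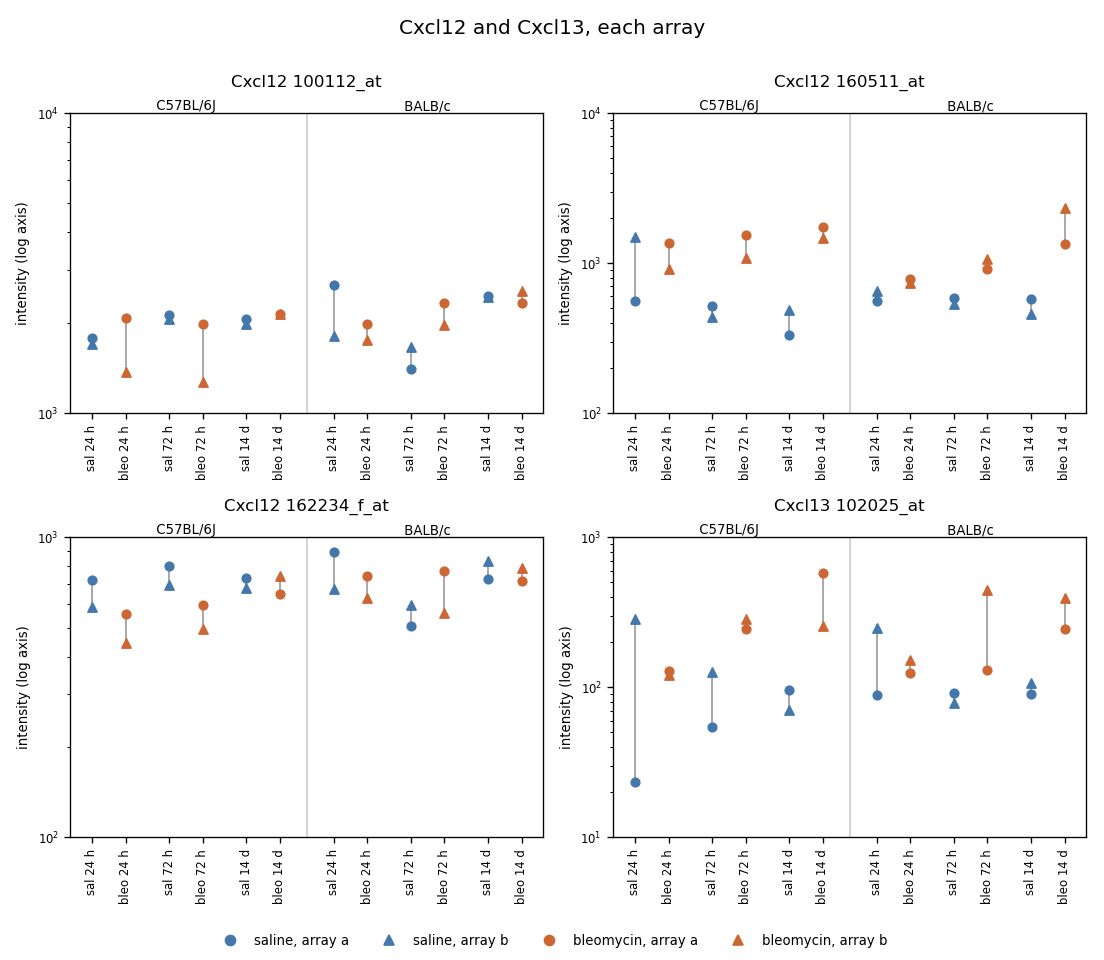
Intensity (log axis) of the 3 Cxcl12 probe sets and Cxcl13 on each of the 24 arrays, by strain, treatment and time; circles are a arrays, triangles b arrays. Bleomycin arrays of Cxcl12 160511_at run from 742 to 2315, while the other Cxcl12 probe sets show no such separation.

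Counted over all 9 probe sets tested, 2 were called at 72 h in C57BL/6J (Cxcl10 and Cxcl12 160511_at) where 6.61% of all probe sets were called, and 0 of 9 in BALB/c where 1.32% were, with 2 at an unadjusted limma p under 0.05. In that BALB/c comparison 919 of all 8710 probe sets were under this unadjusted threshold. Without the doubtful saline arrays the counts called were 1 of 9 in C57BL/6J (Cxcl10), where 6.03% of all were called, and 0 of 9 in BALB/c, where 6.18% were. With their labels exchanged they were 1 of 9 (Cxcl10) with 2.59% and 0 of 9 with 0.0804%. For the mean of both strains 2 of 9 were called at 72 h (the same 2) against 3.21% of all, and 2 of 9 at 14 d (Cxcl12 160511_at and Cxcl13) against 12.1% of all. Every called change against saline was a rise. The median change of the 9 for the mean of both strains was 0.27 at 24 h, 0.98 at 72 h and 0.71 at 14 d, beside 0.04, -0.02 and -0.03 over all probe sets tested. These medians describe the probe sets that passed the filter, several of them through bright bleomycin arrays.

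The strains were compared directly and through their responses. The strain difference in the bleomycin effect was called for 0 of 9 at 24 h, where 0.023% of all probe sets were called, 0 of 9 at 72 h with 3.08%, and 0 of 9 at 14 d with 7.43%, and unadjusted limma p fell under 0.05 for 0, 2 and 0. Of all 8710 probe sets, 840, 1160 and 2110 had such an unadjusted p. At 72 h the strain difference was called for 0 of 9 also without the doubtful saline arrays, where 0.913% of all were called, and with their labels exchanged, where 0% were. After saline, as the mean of 24 h and 14 d, 0 of 9 differed between strains where 11.1% of all did, and 0 of 9 at an unadjusted p under 0.05, beside 2289 of all 8710. After bleomycin, as the mean of 3 times, 0 of 9 differed where 11.7% did, with 2 at an unadjusted p under 0.05, beside 2373 of all 8710. The intervals were wide. For Cxcl1 95348_at the strain difference at 24 h had a 95% interval from -0.36 to 4.52, so these arrays do not show that the strains responded alike.

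Within the bleomycin arrays alone, 0 of 9 probe sets changed from 24 h to 72 h, where 11.6% of all did, with 1 at an unadjusted limma p under 0.05. Of all 8710 probe sets 2569 were under that unadjusted threshold. Between 24 h and 14 d 6 of 9 were under it, beside 2774 of all. From 24 h to 14 d 2 of 9 changed, where 17.4% did: Cxcl12 160511_at rose and Cxcl1 95348_at fell by 1.78 ± 0.58 on the log2 scale (limma adjusted p 0.0432). Leaving out any 1 of 18 of the 24 arrays, most of them outside this contrast, took the Cxcl1 call away, with changes of -1.97 to -1.58. The second Cxcl1 probe set differed by -1.63 ± 0.59 (limma adjusted p 0.0662) and Cxcl13 by 0.99 ± 0.34 (limma adjusted p 0.0524). Cxcl1 95348_at and Cxcl12 160511_at thus ran in opposite directions over time after bleomycin.

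Receptors of these ligands were followed as a list of 8 genes, of which 6 were on the array and 4 were tested. Ackr3, which binds and clears Cxcl12, rose after bleomycin in C57BL/6J: it read 2568 and 1817 at 72 h against 800.0 and 617, and 2387 and 2331 at 14 d against 703 and 786. These changes were 1.50 ± 0.25 at 72 h (limma adjusted p 0.00128) and 1.55 ± 0.25 at 14 d (limma adjusted p 0.00162), and the former was 1.57 without the doubtful saline arrays (limma adjusted p 0.00105). In BALB/c it read 986 and 873 at 72 h against 639 and 813, and 750.2 and 893 at 14 d against 597 and 877, overlapping at 14 d. Its change in BALB/c at 72 h was 0.22 without the doubtful saline arrays and 0.36 with their labels exchanged, neither called. The strain difference at 14 d was itself called, 1.39 ± 0.36 (limma adjusted p 0.0301). No such difference was called for any member probe set.

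Cxcr4, the signalling receptor of Cxcl12, fell by 1.01 on the log2 scale in C57BL/6J at 14 d, from 777 and 1269 after saline to 345 and 579 after bleomycin (limma adjusted p 0.0334). It also fell for the mean of both strains at 14 d, by 0.84 ± 0.19 (limma adjusted p 0.0105), with BALB/c at 1322 and 1523 against 2305 and 2352. Its fall at 72 h in C57BL/6J, -1.03 as labelled (limma adjusted p 0.0323), was -0.65 without the doubtful saline arrays (limma adjusted p 0.094). Cxcr2, the neutrophil receptor of Cxcl1, Cxcl2 and Cxcl5, was brightest at 24 h after either treatment. It read 169 to 374 on the 8 arrays of 24 h and 55.4 to 169.9 on the 16 later ones, so the ranges met. After bleomycin 72 h was lower than 24 h by 0.96 ± 0.19 on the log2 scale (limma adjusted p 0.00594). No later array reached the filter level, so Cxcr2 entered the tests through arrays of 24 h. Its call is therefore not support independent of the filter. Cxcr3 was called in no comparison of bleomycin with saline, and the Cxcl13 receptor Cxcr5 stayed below the filter level on every array. Of the neutrophil markers, 0 of 9 tested were called by limma at 24 h and 72 h for the mean of both strains, with 3.04% and 3.21% of all probe sets called, and 1 at each time had an unadjusted p under 0.05. Of all 8710 probe sets 1639 and 1513 had such an unadjusted p. At 14 d 2 of these markers rose, Mmp8 (1.47) and Ltf (1.02), where 12.1% of all were called. The saline 24 h b arrays entered the spread of these tests too. Summed neutrophil intensity in C57BL/6J was 11270 to 13934 after bleomycin at 72 h against 7548 to 8788 after saline. At 14 d it was 9276 to 13456 against 5636 to 6771 there, and 10019 to 10387 against 7542 to 7894 in BALB/c. The sums overlapped at 24 h in both strains and at 72 h in BALB/c. The scavenger Ackr1, untested and named after its values were seen, read 293 and 139 in C57BL/6J at 14 d after bleomycin and 14.8 to 42.9 on all other arrays.

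**Figure D5:**
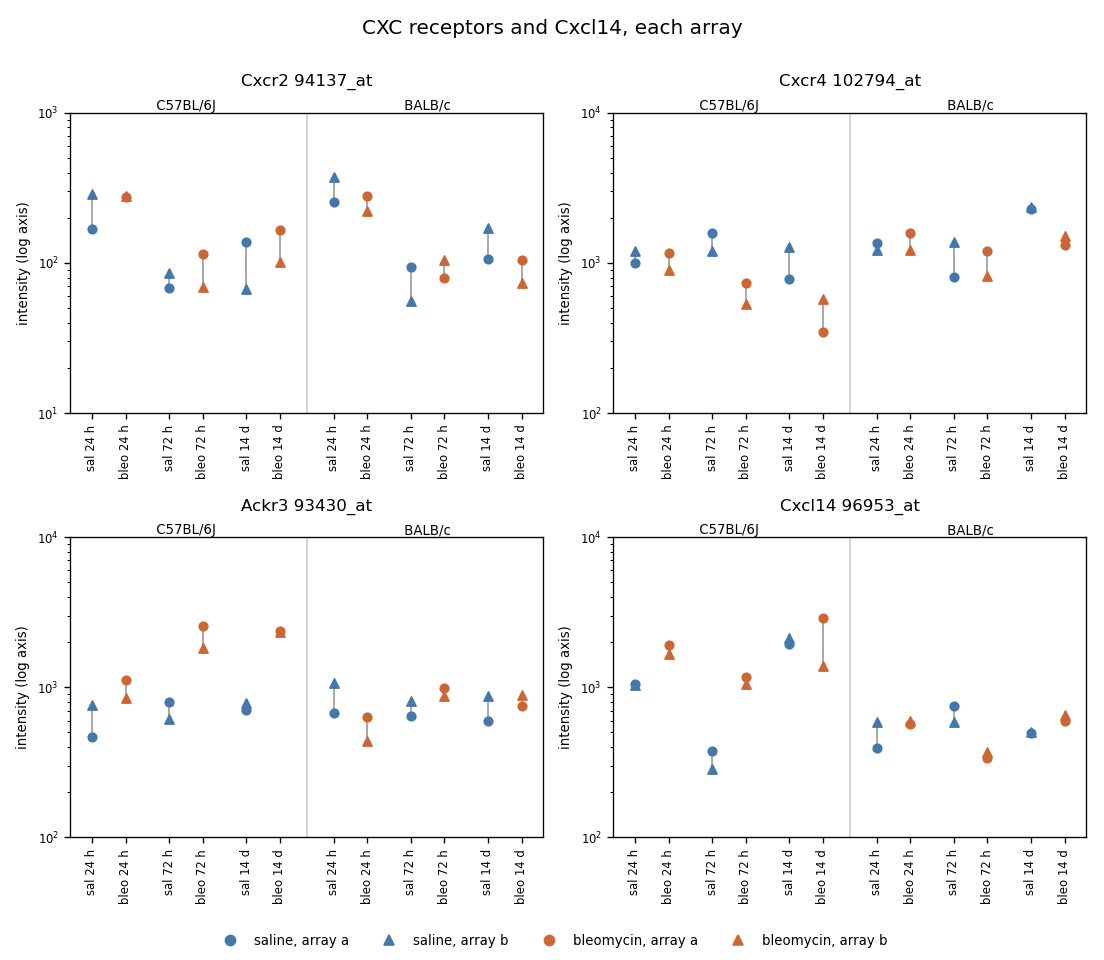
Intensity (log axis) of the receptors Cxcr2, Cxcr4 and Ackr3 and of the ligand Cxcl14 on each of the 24 arrays, by strain, treatment and time; circles are a arrays, triangles b arrays. Ackr3 reaches 2568 and 1817 at 72 h and 2387 and 2331 at 14 d after bleomycin in C57BL/6J, against 440.1 to 1061 on all BALB/c arrays.

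Of 7 other CXC ligands listed, 2 were on the array and 1, Cxcl14, was tested. Cxcl14, an epithelial chemokine, differed between the strains: C57BL/6J exceeded BALB/c by 1.42 ± 0.17 after saline (limma adjusted p 2.3e-05) and by 1.48 ± 0.14 after bleomycin (limma adjusted p 8.12e-07). On the saline 72 h arrays this order was reversed, with 375 and 284 on those labelled C57BL/6J and 746 and 586 on those labelled BALB/c. Between treatments Cxcl14 was called at 72 h in C57BL/6J as labelled, 1163 and 1049 after bleomycin, a change of 1.51 ± 0.23 (limma adjusted p 6.26e-04). That change was -0.38 without the doubtful saline arrays (limma adjusted p 0.298) and 0.67 with their labels exchanged (limma adjusted p 0.156). At 24 h in C57BL/6J it read 1902 and 1666 after bleomycin against 1055 and 1036, without overlap, a change of 0.72 ± 0.23 that was not called (limma adjusted p 0.134). The platelet chemokine Pf4 stayed below the filter level.

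The genes through which the neutrophil-attracting members are induced were taken as a list of 19, with 15 tested. For the mean of both strains 1 rose at 24 h, 3 at 72 h and 3 at 14 d, and 0 fell, with medians of 0.16, 0.21 and 0.36. The shares of all probe sets called in either direction were 3.04%, 3.21% and 12.1%, so 3 of 15 at 14 d is not far from that background. Bcl3, a nuclear partner of NF-kappaB, rose at all 3 times, by 1.38, 1.35 and 1.21. The others were Myd88 (0.62) and the TNF receptor Tnfrsf1a (0.76) at 72 h, and Myd88 (0.55) and the IL-1 receptor Il1r1 (0.65) at 14 d. Bcl3 read 2047 and 1853 in C57BL/6J at 24 h after bleomycin against 622 and 896, and 688 and 695 in BALB/c against 134 and 261, without overlap in either strain. Its saline 24 h b arrays thus lay below both bleomycin arrays in each strain.

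Of 16 genes of interferon gamma signalling 14 were tested, and for the mean of both strains 0 were called by limma at 24 h, 72 h or 14 d, with medians of 0.09, 0.10 and 0.06 and with 3, 2 and 2 at an unadjusted p under 0.05. Of all 8710 probe sets 1639, 1513 and 2423 had such an unadjusted p. Ifng itself stayed below the filter level on all arrays. Of 11 genes of lymphoid tissue organisation, the setting in which Cxcl13 acts, 5 were tested and 0 were called by limma at any of these times, with 0 at an unadjusted p under 0.05.

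Markers of other lung cells moved at 14 d, when Cxcl12 160511_at and Cxcl13 were called for the mean of both strains and 12.1% of all probe sets were. Among 11 macrophage markers tested, 9 rose, with a median of 0.84 over the 11, and the 4 with the smallest p were Ctsk (1.61), Cd68 (1.24), Msr1 (1.52) and Fcgr1 (0.73). The summed macrophage intensity at 14 d was 31799 to 45366 after bleomycin against 23911 to 26549 after saline in C57BL/6J, and 22101 to 23571 against 19259 to 20369 in BALB/c. Of 10 fibroblast markers, 5 rose and 0 fell, with a median of 0.29, among them Col1a2 (0.97), Col3a1 (0.62), Dcn (0.40) and Col1a1 (0.65), which code collagens and a matrix proteoglycan. Their summed intensity at 14 d was 36133 to 56653 after bleomycin against 31797 to 32207 after saline in C57BL/6J, and 27267 to 33358 against 23033 to 24619 in BALB/c. Neither sum overlapped between treatments at 14 d in either strain. The fibroblast sum was 42633 to 43396 on the C57BL/6J saline 24 h arrays and 32407 to 38487 on the saline 72 h arrays labelled BALB/c. On those arrays the macrophage sum was 30090 to 35783 and 24653 to 27982. Saline arrays of other times thus reached or passed the macrophage range of bleomycin at 14 d. The part of macrophage or fibroblast RNA in the changes of the 2 ligands was not tested. Of 10 B cell markers tested 0 rose and 2 fell, Ms4a1 (-0.74) and Cd79a (-0.56). The summed intensity of 10 T cell markers in C57BL/6J at 14 d was 1321 to 1845 after bleomycin against 2161 to 2548 after saline. At 72 h in that strain it was 1421 to 1944 against 2440 to 2687 as labelled. In BALB/c at 14 d it was 2589 to 2668 against 2019 to 2416. The T cell sums overlapped at 72 h in BALB/c and at 24 h in both strains, and were not tested.

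By likeness over the 24 arrays, the genes that most resembled Cxcl1 95348_at were Saa2 (r = 0.879), Ghrl (0.872) and Orm1 (0.864), and those most like Cxcl2 were Orm1 (0.919), Ccl3 (0.913) and Il1b (0.888). Without the saline 24 h b arrays, r of Cxcl2 with Ccl3 was 0.596, so that likeness leaned on them. The second Cxcl1 probe set, 95349_g_at, was most like Cd14 (0.845), Ghrl (0.840) and Saa2 (0.840), and Cxcl5 was most like Cxcl1 95349_g_at (0.829), D17H6S56E-5 (0.813) and Lcn2 (0.808). Cxcl10 was most like Ccl7 (0.905), Ifit1 (0.883) and Gm9706 (0.875). Cxcl12 160511_at and Cxcl13 shared their nearest gene, Lilr4b, with r of 0.903 and 0.873, and were followed by Scarb2 and Tmem167 for the former and Ccr1 and Aif1 for the latter. Cxcl12 100112_at was most like Mgll (0.783), Eif2ak4 (0.736) and Tnnt2 (0.730), and 162234_f_at was most like Pbx3 (0.760), Fam32a (0.756) and Fabp3 (0.751). These correlations share arrays, strains and treatments and are descriptions only. Tnnt2 is among 8 heart muscle markers, whose summed intensity in C57BL/6J at 72 h was 6814 to 9897 after bleomycin against 14533 to 15940 after saline. At 14 d it was 6722 to 9529 against 15042 to 15801 there, and 12686 to 13653 against 15113 to 15430 in BALB/c. In BALB/c the sums overlapped at 24 h and 72 h. The part of heart muscle RNA in the values of these Cxcl12 probe sets was not tested.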

How the data were processed

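Total RNA of mouse lung was measured on 24 Affymetrix arrays. The authors deposited 1 intensity on a linear scale for each probe set of an array. How they summarised probes and normalized was not stated in any source used here. Trimmed means of 796.5 to 800.7 on all arrays were calculated from the table, so no further normalization was applied. Groups came from the titles. From the table of 12488 probe sets, 66 controls were left out, and those above 225.7 (the 40th percentile) on at least 2 arrays were tested: 8710. An offset of 92 was added before log2. One mean per group was fitted over all 12 groups with limma 3.58.1 in R 4.3.3 (12 residual degrees of freedom, variance trend), two-sided, with Benjamini-Hochberg adjustment over all probe sets tested, for 16 comparisons. The fit was tested on simulated data. The number of arrays limits the precision. Named are all member probe sets, called genes of the lists (1 probe set per gene, the brightest with 1 name; up to 4 with the smallest p per list), H2-Ea and the 3 genes most like each member probe set; receptors and ligands of the lists, Sftpc, Scgb1a1 and the genes set beside the saline 24 h b arrays were named after their values were seen. Of 12422 probe sets 10833 had 1 gene name, 396 several and 1193 none. Members and gene lists were chosen with earlier results of these data known. Alternatives numbered 14, 2 of them chosen after the values were seen, besides leaving out each of the 24 arrays.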

Additional observations from a re-analysis of the deposited data

Results flagged for a closer look

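In 2 results the strains went in opposite directions, every array of one strain moving one way and every array of the other the opposite way. Cxcl12 probe set 100112_at at 72 h was lower after bleomycin in C57BL/6J and higher in BALB/c, a difference of -0.84 on the log2 scale; its limma adjusted p was 0.161, and it rests on the saline arrays whose strain is in doubt. Cxcl2 at 14 d was higher after bleomycin in C57BL/6J and lower in BALB/c, a difference of 1.28; its limma adjusted p was 0.589.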

How the results depend on the processing

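Counts are of the 9 tested member probe sets called, out of 14 alternatives and 24 left-out arrays. Counts without the saline 24 h b arrays, which were picked by member values, are no independent support. Counts with the saline 14 d control, whose spread also lacks those arrays, are none either. Without both saline 24 h b arrays they were 4, 5 and 3 in C57BL/6J at 24 h, 72 h and 14 d, 2, 1 and 3 in BALB/c, 4, 6 and 4 for the mean of both strains, 1 between strains after bleomycin, 3 from 24 h to 72 h and 5 from 24 h to 14 d. The shares of all probe sets called were then 3.33%, 7.67% and 8.66% in C57BL/6J, 0.979%, 1.5% and 13.8% in BALB/c, 3.63%, 4.17% and 13% for both strains, 13.1% between strains, and 12.3% and 18.8% over time. With the saline 14 d arrays as control they were 5, 4 and 3, 2, 2 and 3, 5, 5 and 4, then 1 for the strain difference at 24 h, 3 and 5 over time, with shares of all of 5.47%, 6.65% and 7.56%, 3.27%, 11.7% and 12.8%, 8.33%, 14% and 12.1%, 0.69%, and 11.8% and 17.9%. Cxcl2 at 24 h reversed under both: from -0.79 to 1.40 and 2.0 in C57BL/6J, and from -0.82 to 1.02 and 1.23 for the mean of both strains. Without the C57BL/6J saline 24 h arrays, with those of 14 d as the control at 24 h, counts were 4 (C57BL/6J, 24 h), 2 (C57BL/6J, 14 d), 4 (both strains, 24 h), 1 (strains after bleomycin) and 4 (24 h to 14 d), with shares of all of 5.3%, 8.07%, 6.44%, 12.3% and 18.1%. With all saline arrays of a strain as control the first 3 of these were 3, 2 and 4, with 4.66%, 16.7% and 9.85%. Without the 4 saline arrays of 72 h, with the strain's saline arrays of 24 h and 14 d as control, 1 remained called in C57BL/6J at 72 h and 1 from 24 h to 14 d, and with their strain labels exchanged 1 at 72 h. The strains differed after bleomycin for 1 under quantile normalization, the larger offset of 276 and no variance trend. From 24 h to 14 d the count was 4 with that offset, and 1 with no filter, no variance trend and array weights. With the filter at the 60th percentile, which leaves out 2 member probe sets, it was 1 in C57BL/6J at 72 h and for both strains at 72 h and at 14 d. Array weights gave 1 for both strains at 14 d and 2 from 24 h to 72 h. The cause was not tested. Across left-out arrays counts ran from 0 to 3 (C57BL/6J 24 h), 0 to 2 (72 h), 0 to 2 (14 d), 0 to 1 (BALB/c 14 d), 0 to 2, 0 to 3 and 1 to 2 (both strains), 0 to 1 (strains after saline and after bleomycin), 0 to 1 (24 h to 72 h) and 0 to 4 (24 h to 14 d). For these counts, and for those from quantile normalization to array weights, no share of all probe sets is given. They are therefore not read as results about the members. As labelled, 11.7% of all were called between strains after bleomycin and 17.4% from 24 h to 14 d. The array letters did not pair samples: deviations correlated with a median r of 0.006 over 66 pairs, 14 of them over 0.1. With the letter as a replicate block no count left its range, and Cxcl13 from 24 h to 14 d was called (0.99, limma adjusted p 0.0427). In all, under the alternatives besides left-out arrays, 1884 values kept their side of the threshold, 89 moved past it, 7 lost it and 4 reversed; sign changes of values called under neither setting were not counted. With 2 arrays a group, differences near the spread between arrays are not detectable.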
